A study of Mus musculus with 48 samples.

Results

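The genes described here encode the enzymes of glycolysis and of the pentose phosphate pathway in developing mouse B cells, together with lactate dehydrogenase, pyruvate dehydrogenase and its kinases, and the transcription factor HIF1A. They were chosen by name: 36 genes were listed, and 35 have a value in all 30 RNA libraries, out of 21025 gene models. GAPDH was not analysed here. No member had more than 1 gene model to choose from, so no measured value was needed to pick one. The list of members was drawn up with earlier results of these data known.

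Glycolysis splits glucose into pyruvate in the cytosol. Pyruvate either enters the mitochondrion through pyruvate dehydrogenase or is reduced to lactate by lactate dehydrogenase, while pyruvate dehydrogenase kinases switch the first of these routes off. The pentose phosphate pathway branches from glucose phosphate and supplies NADPH and ribose for nucleotide synthesis. Dividing precursor B cells are known for high glucose use, and HIF1A is a known activator of many glycolytic genes under low oxygen.

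The study asked how Ikaros, a zinc finger transcription factor encoded by Ikzf1, acts in successive stages of early B cell development. Polyadenylated RNA of C57BL/6 mouse cells was sequenced in 30 libraries, 7 groups of 2 and 4 groups of 4. The other 18 of the 48 samples of the series are chromatin samples and were not analysed here. Ages, and whether libraries of a group came from separate mice or cultures, were not given in the sources used here, and a p-value given here covers no more than the spread among the libraries of this series.

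Control pro-B cells were Ikzf1(fl/+) Cd79a(Cre/+), and Ikaros-deleted pro-B cells were Ikzf1(fl/-) Cd79a(Cre/+). Both genotypes carry Cre in Cd79a, a gene of the B lineage, so recombination is limited to that lineage, and the controls keep 1 allele that cannot recombine. The same pair of genotypes was sequenced from pro-B cells labelled c-Kit high, c-Kit being the stem cell factor receptor that marks early precursors. It was sequenced again on a Rag2(-/-) background, in which immunoglobulin genes cannot rearrange and development stops at the pro-B stage. Pre-B cells, the next stage, came from wild-type mice. The knock-down used Ebf1(-/-) pre-pro-B cells, which lack the B lineage factor EBF1, with an empty vector or the Ren713 hairpin as controls and the hairpins Ik4056 or Ik2709 against Ikaros. Levels are in RPKM, a read density scaled to the length of the gene model and to the reads of the library. Differences were tested with limma on log2(RPKM + 1), and a gene is called higher or lower, or said to rise or fall, at an adjusted p under 0.05 over all genes tested.

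The targeted gene followed the labels only in part at the level of the whole gene model, which cannot resolve a deleted exon. IKZF1 stood at 59.2 and 56.4 RPKM in control and at 45.3 and 48.9 in deleted pro-B libraries, a log2 difference of -0.29 ± 0.14 (SE, adjusted p = 0.178) that was not called. It was lower in the c-Kit-high deletion (-0.58, adjusted p = 0.0144), the Rag2-null deletion (-0.62, adjusted p = 0.00893) and the knock-down (-1.57, adjusted p = 6.54e-06). The deposited values keep no counts, and the smallest steps between low values only roughly imply the depth, from 2.31 M reads in 1 c-Kit-high control library to 36.1 M in 1 knock-down library. The summed RPKM of 9 B lineage markers was 2829 to 6193 in the pro-B and pre-B libraries and 39.3 to 101 in the EBF1-deficient cells. A pair of c-Kit-high libraries with consecutive library numbers, control replicate 1 and deleted replicate 2, stood apart with 0.557% and 0.627% of their RPKM on histone genes, against at most 0.136% in every other library.

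Promoter sequence was available for all 36 members in a RefSeq table on GRCm38.p6, in which 250 bases before each annotated start were searched on both strands for 5 motifs: ACGTG and GCGTG, the cores of the hypoxia response element bound by HIF, CACGTG, an E-box that contains ACGTG, and GGGAA and TGGGAA, forms of the Ikaros core of which the second contains the first. ACGTG or GCGTG occurred before at least 1 listed start of 31 members (86.11%), against 41.54% of 27025 genes in the table and 61.66% of 8304 expressed genes. Expressed genes are those with at least 1 RPKM in at least 2 of the 30 libraries, and 8304 of their 12203 symbols were found in the promoter table, which is not complete. GGGAA occurred before 27 members (75%), against 59.36% of all genes and 63.51% of the expressed ones, and TGGGAA before 9 (25%), against 24.09% and 23.84%. CACGTG occurred before 4 members (11.11%), against 6.86% and 10.16%. Of the 10 members that fell in both the pro-B and the Rag2-null deletion, 8 held ACGTG or GCGTG, and GPI1 and TPI1 did not. Promoters were matched by symbol, and the symbols deposited as PGM1 and PGM2 are exchanged in current RefSeq; both promoters hold ACGTG, so these counts are the same under either match. A match is a description of the letters and is no evidence of binding.

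The following 4 promoters are shown because their genes carry the main results below: LDHA, ENO1 and TPI1, which fell together, and ENO3, which rose. Each is printed 5′ to 3′ on the gene's own strand, in lower case, with ACGTG and GCGTG on either strand in capitals (CACGT and CACGC when read on the other strand). LDHA (chr7:46845554-46845803, plus strand, the start with most matches of 2 listed) holds 3 runs in capitals, 2 of them full E-boxes. ENO1 (chr4:150236947-150237196, plus strand, of 3 listed) holds 2 runs, and ENO3 (chr11:70656926-70657175, plus strand, its single listed start) holds 1. TPI1 (chr6:124814159-124814408, minus strand, its single listed start) holds none in the 250 bases searched. Any link between these motifs and the RNA levels was not tested.
LDHA: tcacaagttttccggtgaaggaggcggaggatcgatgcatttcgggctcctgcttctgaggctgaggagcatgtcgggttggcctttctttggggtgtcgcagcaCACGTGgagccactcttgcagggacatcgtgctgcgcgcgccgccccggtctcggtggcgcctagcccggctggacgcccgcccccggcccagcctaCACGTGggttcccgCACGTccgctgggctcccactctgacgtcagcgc
ENO1: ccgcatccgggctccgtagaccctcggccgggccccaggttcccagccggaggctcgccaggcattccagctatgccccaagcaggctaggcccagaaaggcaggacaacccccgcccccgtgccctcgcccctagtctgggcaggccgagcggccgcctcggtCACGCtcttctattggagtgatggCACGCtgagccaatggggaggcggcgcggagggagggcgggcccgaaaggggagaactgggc
TPI1: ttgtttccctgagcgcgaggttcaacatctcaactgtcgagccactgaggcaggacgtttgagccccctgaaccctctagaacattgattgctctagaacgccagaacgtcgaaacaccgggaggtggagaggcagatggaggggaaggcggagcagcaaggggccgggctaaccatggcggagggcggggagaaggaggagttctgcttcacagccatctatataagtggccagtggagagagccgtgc
ENO3: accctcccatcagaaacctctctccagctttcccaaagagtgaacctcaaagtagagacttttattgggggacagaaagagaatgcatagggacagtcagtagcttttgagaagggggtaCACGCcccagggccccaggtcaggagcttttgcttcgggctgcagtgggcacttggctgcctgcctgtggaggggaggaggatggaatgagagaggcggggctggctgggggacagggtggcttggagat

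In control pro-B cells the pathway spanned more than 2 orders of magnitude per unit of length. The most abundant members by mean RPKM were PKM2, pyruvate kinase, at 843.1, LDHA, the main lactate dehydrogenase subunit, at 829.6, the aldolase ALDOA at 619.9 and the transketolase TKT at 618.1. These values are gene-level and do not separate the splice forms of pyruvate kinase. ALDOA and TKT did not differ beyond their spread (612 and 628 against 625 and 611 in the 2 libraries), nor did PKM2 and LDHA (859 and 827 against 837 and 822). TPI1 followed at 365.9, the lactonase PGLS at 291.4 and GPI1 at 199.3. At the other end stood HK3, listed at 0 in both libraries, ENO2 at 1.25, PFKFB4 at 3.06 and LDHB at 3.10. All 35 genes together took 1.15% and 1.16% of the RPKM of the 2 control libraries. Reference annotation names 3 copies each of ALDOA, PGK1 and LDHA, 2 of PGAM1 and 1 of LDHB, so their values are uncertain where the counting split reads with those copies. Only copies named by the gene's symbol with a -ps or -rs suffix were counted. Copies under other names were not searched for, also for ENO1 and TPI1.

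**Figure D1:**
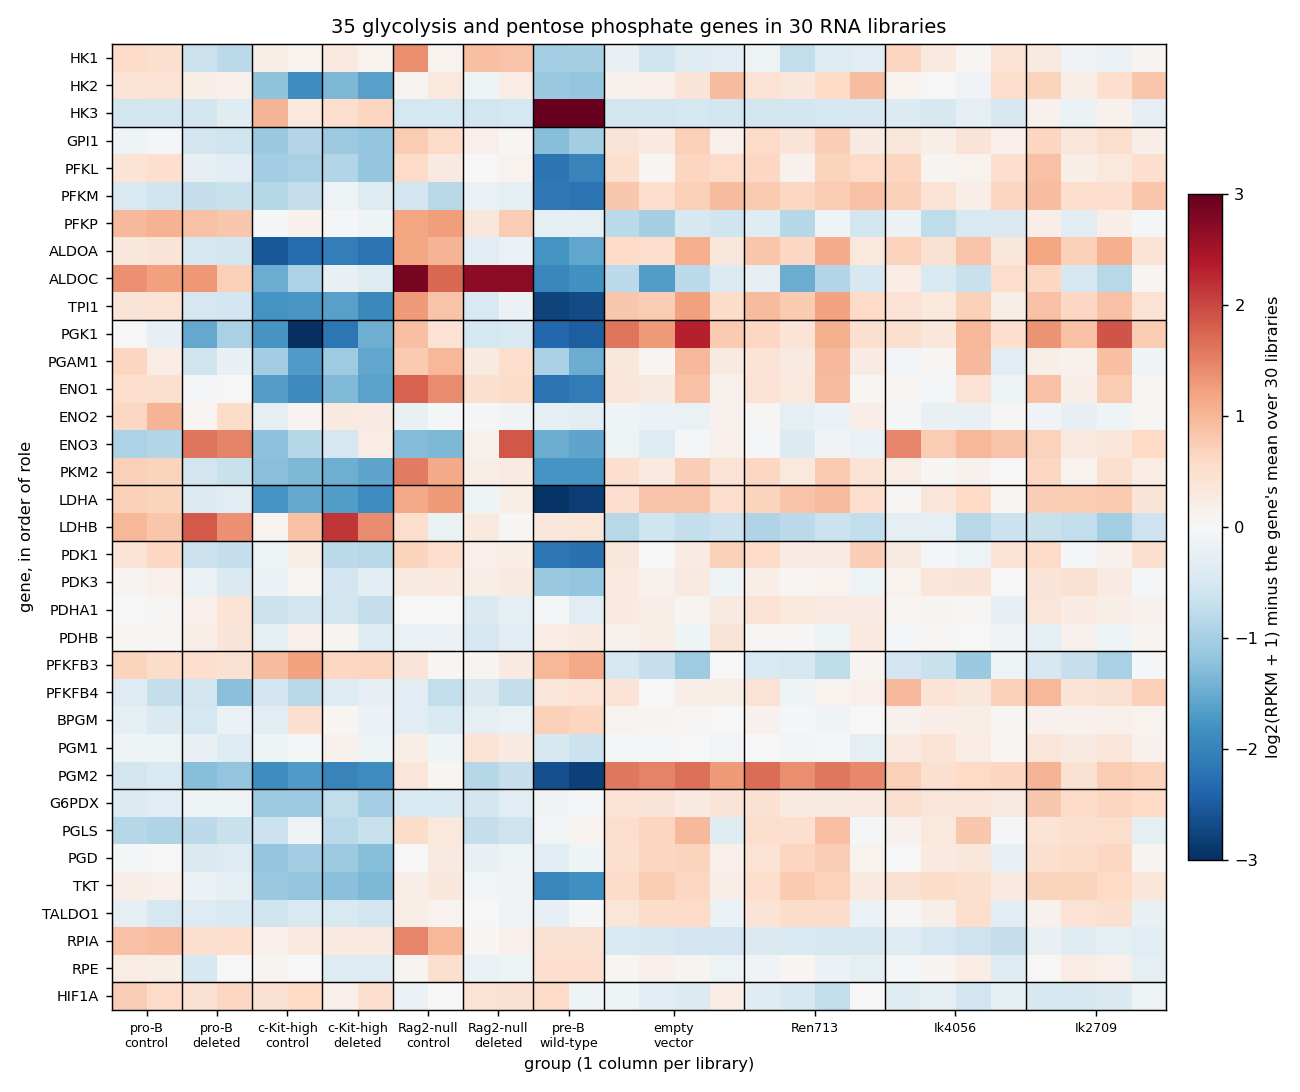
Level of each of 35 members (rows, in order of role) in each of 30 libraries (columns, by group), as log2(RPKM + 1) minus the gene's mean over all libraries. The Rag2-null controls are reddest for ENO1, PKM2 and LDHA, and the wild-type pre-B and all c-Kit-high libraries are bluest for the same genes.

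Many genes of the glycolytic route to lactate were lower in Ikaros-deleted than in control pro-B cells. Of 34 members tested, 15 fell and 1 rose, while 9.89% of all 11937 genes tested were called lower and 13.5% higher. The members' median log2 difference was -0.37, against 0.03 over all genes. From hexokinase to lactate dehydrogenase 9 of 17 fell and 1 rose (median -0.53), in the pentose phosphate pathway 3 of 7 fell, and among pyruvate dehydrogenase and its kinases 2 of 4 fell. The share of all RPKM taken by the members went from 1.15% and 1.16% in control to 0.749% and 0.751% in deleted libraries.

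At the entry to the pathway, HK1, a hexokinase that traps glucose in the cell, read 65.7 and 62.0 RPKM in control and 27.6 and 25.3 in deleted pro-B cells. Both deleted libraries lay below both controls, a log2 difference of -1.24 ± 0.30 (SE, n = 2 against 2, adjusted p = 0.011). Its call was lost when either control (adjusted p = 0.0674 without replicate 1) or deleted replicate 2 was left out. HK2, the inducible hexokinase, read 19.0 and 19.3 against 16.0 and 15.8 and was not called. PFKL, the liver form of phosphofructokinase and a main control point of glycolysis, read 88.7 and 94.8 in control and 56.2 and 52.9 in deleted cells. The groups did not overlap, and PFKL fell by 0.74 ± 0.13 (adjusted p = 0.00136), whereas PFKM and PFKP, the muscle and platelet forms, were not called. GPI1, the isomerase before phosphofructokinase, read 195 and 204 against 146 and 141 and fell by 0.48 (adjusted p = 0.0124).

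The steps that split the hexose and convert the triose sugars fell too. ALDOA read 612 and 628 RPKM in control and 343 and 326 in deleted libraries. TPI1, triose phosphate isomerase, read 360 and 372 against 194 and 185. Neither gene's groups overlapped, and they fell by 0.89 ± 0.12 (adjusted p = 0.000181) and 0.94 ± 0.15 (adjusted p = 0.000633). PGK1, which makes the first ATP of the pathway, read 24.7 and 20.9 against 8.03 and 12.3, a log2 difference of -1.11 that missed the threshold (adjusted p = 0.0541). PGAM1, phosphoglycerate mutase, had low levels, 6.41 and 4.53 against 2.16 and 3.04, and was called lower (-0.84, adjusted p = 0.0432) only narrowly.

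The enolases, which remove water to give phosphoenolpyruvate, went in opposite directions. ENO1, the ubiquitous form, read 149 and 143 RPKM in control and 99.1 and 103 in deleted cells, a fall of 0.53 on the log2 scale (adjusted p = 0.0172). ENO3, the muscle form, read 7.29 and 7.73 in control and 48.0 and 44.1 in deleted cells. It was the only member that rose, by a log2 difference of 2.47 ± 0.44 (adjusted p = 0.00259), a ratio of mean RPKM of 6.13. ENO3 thereby went from 4.63% to 5.06% of the summed enolase RPKM in the 2 controls to 29.9% to 32.6% in the deleted libraries.

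The last step of glycolysis, lactate formation and a kinase of pyruvate dehydrogenase fell as well. PKM2, which makes pyruvate and ATP, read 859 and 827 RPKM in control and 358 and 328 in deleted pro-B cells, and the groups were far apart. It fell by 1.30 ± 0.13 on the log2 scale (adjusted p = 1.58e-05). LDHA read 837 and 822 against 384 and 411, and fell by 1.06 ± 0.13 (adjusted p = 7.34e-05). LDHB, the heart subunit, read 3.33 and 2.86 against 6.79 and 4.58, higher in both deleted libraries but not called (log2 difference 0.69, adjusted p = 0.147). PDK1, the kinase that inactivates pyruvate dehydrogenase, read 32.4 and 37.3 against 15.1 and 14.2 and fell by 1.19 ± 0.13 (adjusted p = 4.19e-05). PDK3, a second such kinase, fell by 0.43 (adjusted p = 0.0412), while the pyruvate dehydrogenase subunits PDHA1 (log2 difference 0.26, adjusted p = 0.178) and PDHB were not called.

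In the pentose phosphate pathway the 3 members that fell lie in both the oxidative branch (PGD) and the non-oxidative branch (TKT and RPIA). PGD, phosphogluconate dehydrogenase, read 132 and 135 RPKM against 99.6 and 104 (log2 difference -0.39, adjusted p = 0.036). TKT read 625 and 611 against 473 and 444 (-0.43, adjusted p = 0.00641), and RPIA, ribose phosphate isomerase, read 109 and 114 against 82.4 and 84.8 (-0.41, adjusted p = 0.0412). Each fall was smaller than those of ALDOA, TPI1, PKM2 and LDHA. G6PDX, the entry enzyme glucose phosphate dehydrogenase, read 27.3 and 29.3 against 33.8 and 33.7 and was not called, and PGLS, TALDO1 and RPE were not called either. HIF1A itself read 23.9 and 21.2 against 19.5 and 22.0, with overlapping groups (log2 difference -0.11, adjusted p = 0.755). Among the side enzymes 1 of 5 fell, the gene deposited as PGM2, at 32.7 and 35.01 against 19.6 and 20.9 (-0.71, adjusted p = 0.00205). The accession in that entry now belongs to Pgm1, the phosphoglucomutase that links glycogen with glycolysis, and the entry deposited as PGM1 now belongs to Pgm2.

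Genes around the pathway, from lists drawn up with earlier results of these data known, were read in the same fit. Of 8 glucose and lactate carriers tested, 6 fell and 1 rose. The lactate exporter SLC16A3 fell by 2.69 on the log2 scale (12.9 and 17.3 against 1.00 and 2.06 RPKM), the glucose carrier SLC2A1 by 1.07 (35.8 and 38.7 against 17.5 and 17.0) and the lactate carrier SLC16A1 by 0.84. SLC2A8, an intracellular glucose carrier, rose by 2.02. Of 20 genes of the TCA cycle none fell and 1 rose, the malate dehydrogenase MDH1 (log2 difference 0.59), with a median of 0.04. Of 27 known hypoxia targets outside glycolysis 8 fell and 3 rose: BNIP3 (-1.55), P4HA1 (-1.19), PLOD2 (-1.17) and MIF (-0.76) were among the falls, and VEGFA (0.70), GYS1 (0.47) and WSB1 (0.44) were the rises. Of 10 regulators of HIF 3 rose: the coactivator competitor CITED2 (1.18), and VHL (0.64) and EGLN2 (0.56), both parts of HIF degradation. The 1 that fell was EPAS1 (-1.02, adjusted p = 0.00267). EGLN1 (-0.19) and EGLN3 (-1.96, adjusted p = 0.0542), of the same family as EGLN2, were lower but not called. Of 13 genes listed as other regulators of glycolytic genes, only IRF4 was called, higher by 1.775 (adjusted p = 4.58e-06). MYC (-0.149), MAX (-0.035) and MTOR (0.173) were among those not called. The part of any of these regulators in the members' values was not tested. Of 14 side enzymes around the pentose phosphate pathway 3 fell and none rose, among them the glutathione reductase GSR (-1.19) and the ribose phosphate pyrophosphokinase PRPS1 (-0.93), and of 26 further side enzymes 5 fell and 3 rose.

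No cycling marker of 5 was called: their summed RPKM was 436 and 500 in control and 488 and 517 in deleted libraries. Summed stroma and endothelium markers were 80.2 and 112 against 53.2 and 51.9, with 2 of 5 called lower and 1 higher, and summed macrophage markers were 13.8 and 13.04 against 6.43 and 4.44, with EMR1 and C1QA listed at 0 throughout; of 4 tested LYZ2 was called lower and CSF1R higher (1.39). The part of these markers in the result was not tested. Neutrophil markers summed to at most 0.733 RPKM in each of these libraries. In these bulk libraries a lower share of cells of a type and less RNA per cell cannot be told apart. The calls of PFKL, ALDOA, TPI1, ENO3, PKM2, LDHA, PDK1 and PGM2 held in every alternative run. Leaving out 1 library at a time gave 8 to 11 called members in place of 16, with 8 without control replicate 1 and 9 without control replicate 2 or deleted replicate 2; the falls of GPI1, PGAM1, ENO1, PGD and RPIA were lost under each of the 4.

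**Figure D2:**
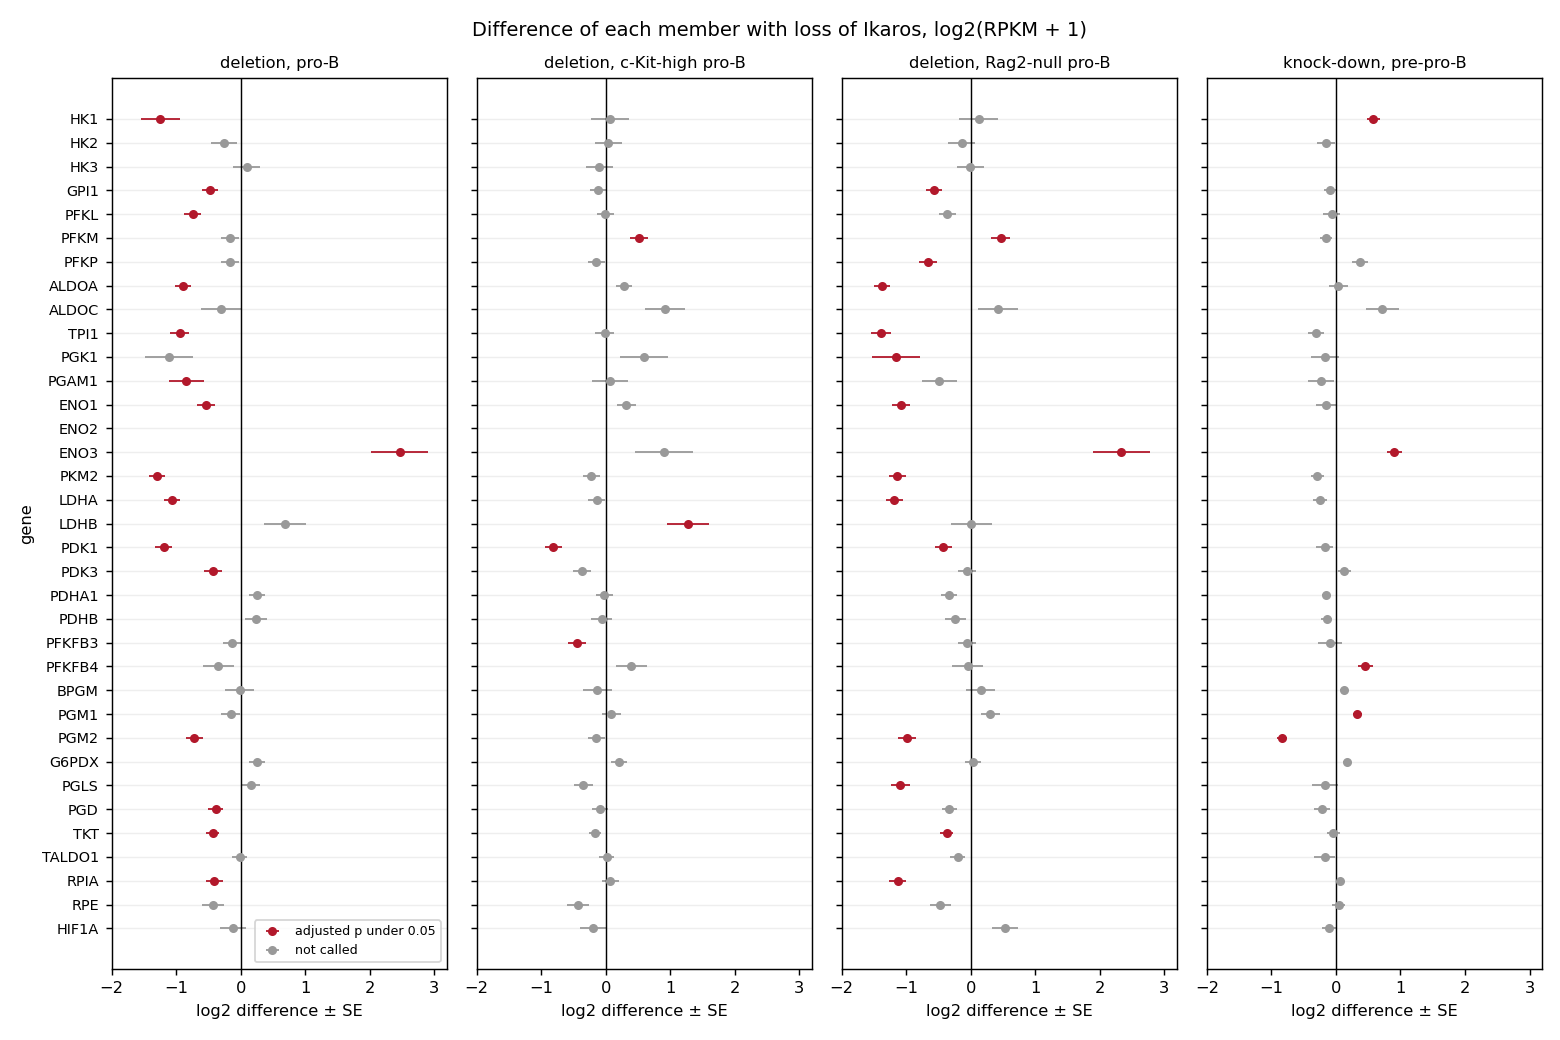
Log2 difference (horizontal axis, ± SE, log2(RPKM + 1)) of each member with loss of Ikaros in pro-B, c-Kit-high pro-B, Rag2-null pro-B and knocked-down pre-pro-B cells; red marks an adjusted p under 0.05. Red points left of 0 number 15, 2, 13 and 1, and ENO3 lies right of 0 in all 4 panels.

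The Rag2-null pro-B cells gave a second deletion with controls of its own. Of 34 members tested 13 fell and 2 rose, against 6.84% of all genes called lower and 15.5% higher, and the members' median was -0.34, against 0.06. Of the genes from hexokinase to lactate dehydrogenase 8 of 17 fell and 2 rose, and in the pentose phosphate pathway 3 of 7 fell. The 10 members that fell in both deletions, 66.7% of the 15 and 76.9% of the 13, were GPI1, ALDOA, TPI1, ENO1, PKM2, LDHA, PDK1, PGM2, TKT and RPIA, and ENO3 rose in both. Of these, ALDOA, TPI1, PKM2, LDHA and PGM2 kept both calls in every alternative run. The others lost a call in some alternative. The overlap of both deletions over all genes was not counted, so the overlap among members may not be particular to them.

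ALDOA read 1096 and 974 RPKM in Rag2-null controls and 382 and 416 after deletion, a fall of 1.37 ± 0.12 (adjusted p = 6.53e-06). TPI1 read 676 and 498 against 200 and 245 and fell by 1.39 ± 0.15 (adjusted p = 3.7e-05). ENO1 read 354 and 274 against 143 and 151 and fell by 1.08 ± 0.14 (adjusted p = 0.000171). For these 3 genes the 2 controls differed from each other by less than from the deleted libraries. PKM2 read 1549 and 1148 against 593 and 617 (log2 difference -1.14 ± 0.13, adjusted p = 5.12e-05), and LDHA read 1135 and 1247 against 470 and 581.5 (-1.19, adjusted p = 3.68e-05). Quantile normalization, which moved the median of all genes by -0.12 in this comparison, kept these calls but brought PKM2 to -0.60, LDHA to -0.73, ALDOA to -0.90 and PGLS to -0.72, and the calls of GPI1, PGK1, TKT and PFKM were lost under it.

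The remaining calls of the Rag2-null deletion, and HK1, were as follows. HK1 stood at 118 and 47.6 RPKM in the 2 control libraries and at 82.9 and 80.4 in the deleted ones, so the controls lay on both sides of the deleted libraries (log2 difference 0.12, adjusted p = 0.84). PGLS, the lactonase of the oxidative branch, read 786 and 664 against 327 and 349 and fell by 1.09 ± 0.15 (adjusted p = 0.000195). RPIA read 165 and 120 against 61.6 and 65.5 and fell by 1.13 ± 0.13 (adjusted p = 6.47e-05). PFKP fell by 0.66 (adjusted p = 0.00431) and PGK1 by 1.16 (adjusted p = 0.0471), while PFKM rose by 0.46 (adjusted p = 0.0351). The calls of PGK1 and PFKM were each lost in at least 7 of the alternatives run. PDK1 fell less, from 38.8 and 34.9 to 26.7 and 27.7 (log2 difference -0.43, adjusted p = 0.0373), and this call was lost when any of the 4 Rag2-null libraries was left out. ENO3 read 5.54 and 5.30 against 16.7 and 57.9, a log2 difference of 2.33 ± 0.44 (adjusted p = 0.00411) that became 1.46 without deleted replicate 2, the library at 57.9. HIF1A read 12.1 and 14.02 against 19.2 and 19.4, higher in both deleted libraries but not called (0.53, adjusted p = 0.0802).

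The surrounding lists held calls in both directions. Of 8 carriers 4 fell and 1 rose, with SLC16A3 at -2.75, SLC2A1 at -0.79, SLC16A1 at -0.52 and BSG, the partner of lactate carriers, at -0.41. Of 20 TCA cycle genes 1 fell and 2 rose. Of 27 hypoxia targets 7 fell, among them ANKRD37 (-1.40), BNIP3 (-1.07) and MIF (-1.04), and 5 rose, among them PLOD1 (1.38), GYS1 (0.80) and VEGFA (0.78). Beside these, 2 of 5 cycling markers fell (summed RPKM 379 and 400 against 296 and 348) and 4 of 5 stroma and endothelium markers rose (23.0 and 24.9 against 83.2 and 63.9), with macrophage markers at 27.2 and 10.1 against 40.9 and 33.6 and 1 of 4 called higher, and their part in the result was not tested.

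In c-Kit-high pro-B cells most of the pathway did not pass the test. Of 34 members 2 fell and 2 rose, against 5.60% of all genes called lower and 11.6% higher, and the members' median was -0.02, against 0.03. PDK1 read 21.4 and 27.1 RPKM in control and 13.4 and 13.1 after deletion, with no overlap, and fell by 0.82 ± 0.13 (adjusted p = 0.000977); it was the only member called lower in all 3 deletions, with the Rag2-null call lost when 1 library was left out, as given above. PFKFB3, which makes the sugar bisphosphate that activates phosphofructokinase, fell by 0.45 (32.2 and 38.5 against 25.1 and 25.9, adjusted p = 0.0411). LDHB read 1.33 and 3.00 against 8.55 and 4.73 and rose by 1.28 ± 0.32 (adjusted p = 0.0152), and PFKM rose by 0.51 ± 0.14 (9.34 and 10.4 against 15.8 and 13.3, adjusted p = 0.0253).

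PKM2, LDHA and ALDOA, which fell in both other deletions, stood at lower levels in c-Kit-high than in pro-B controls. PKM2 read 219 and 203 RPKM against 187 and 174 (log2 difference -0.22, adjusted p = 0.276). LDHA read 151 and 177 against 159 and 138 (-0.14, adjusted p = 0.509), and ALDOA read 81.5 and 96.4 against 113 and 104 (0.28, adjusted p = 0.135). None of these 3 differences was called, and PKM2 and ALDOA went in opposite directions. Without the pair of libraries rich in histone RNA, an alternative chosen after seeing the data, PDK1 and LDHB (adjusted p = 0.0479) kept their calls, and PFKM (adjusted p = 0.0907) and PFKFB3 (adjusted p = 0.0723) lost theirs. With only the 4 compared libraries in the fit 1 call was left, and 1 was left without deleted replicate 1. Of 8 carriers 1 fell (SLC16A1, -0.49) and 1 rose (SLC2A8, 1.01), and of 27 hypoxia targets 1 fell (P4HA1, -0.46) and 5 rose, among them PLOD1 (1.20) and VEGFA (1.08). Neutrophil markers summed to 607 and 96.9 RPKM in these controls and 116 and 285 in the deleted libraries, and their part in the result was not tested.

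The difference between deletion effects was tested directly, with the caution that each such test reuses the pro-B libraries. The effect in c-Kit-high cells minus that in pro-B cells was called for 6 members, all in the direction of a smaller fall: ALDOA (log2 1.17, adjusted p = 0.00196), PKM2 (1.07, adjusted p = 0.0051), TPI1 (0.93, adjusted p = 0.0225), LDHA (0.92, adjusted p = 0.0107), ENO1 (0.85, adjusted p = 0.0252) and PFKL (0.73, adjusted p = 0.0355). Over all genes 4.54% were called in this direction and 2.16% in the other, in which no member was called. ALDOA and PKM2 kept this call in all alternatives, and leaving out single libraries gave 2 to 7 called members: 2 without c-Kit-high deleted replicate 1, and 3 without either pro-B control, pro-B deleted replicate 2 or c-Kit-high control replicate 2. The effect in Rag2-null minus that in pro-B cells was called for 4 members: PGLS (-1.25, adjusted p = 0.00172), RPIA (-0.72, adjusted p = 0.0233) and PDHA1 (-0.60, adjusted p = 0.0483) lower, and PDK1 (0.76, adjusted p = 0.0178) higher. The background was 4.55% lower and 8.54% higher, and 1 to 6 members were called when single libraries were left out: 1 without pro-B control replicate 2 or deleted replicate 2, and 2 without pro-B control replicate 1 or Rag2-null deleted replicate 1.

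**Figure D3:**
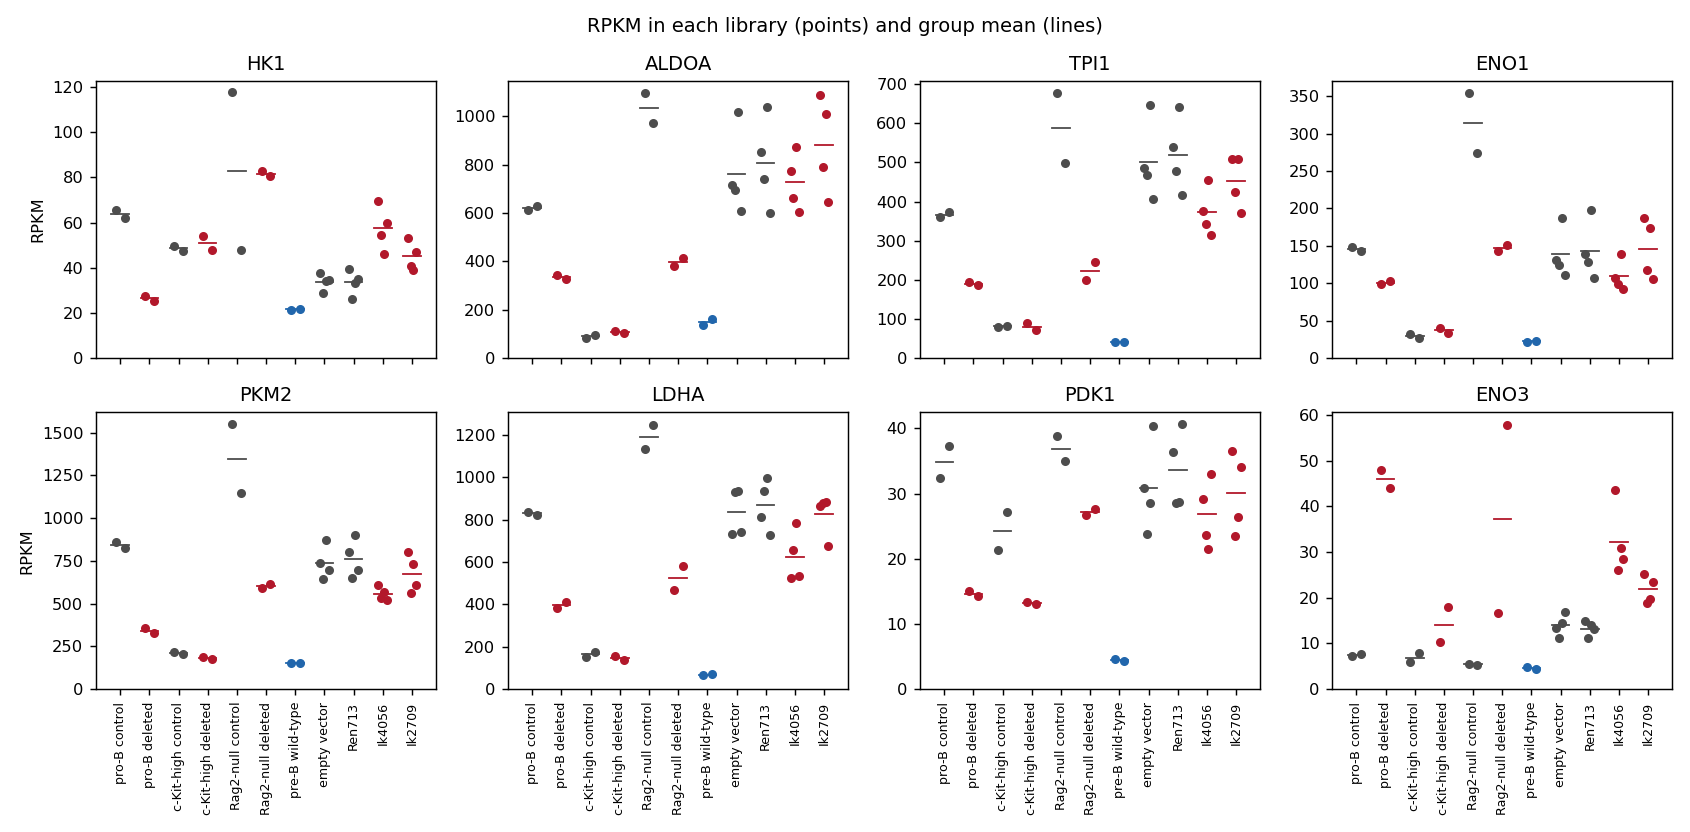
RPKM (vertical axes, linear from 0) of 8 members in each library (points) with group means (lines); grey marks controls, red Ikaros-deleted or knocked-down libraries and blue wild-type pre-B. ALDOA, TPI1, ENO1, PKM2 and LDHA are lower in red than in grey in pro-B and Rag2-null cells and are low in both colours in c-Kit-high cells, and ENO3 is higher in red.

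In the knock-down in EBF1-deficient pre-pro-B cells PGM2 fell and HK1, ENO3, PFKFB4 and PGM1 rose. Of 32 members tested 1 fell and 4 rose, against 6.04% of 10744 genes called lower and 13.4% higher, and the median was -0.10, against 0.01. The gene deposited as PGM2 read 119 to 157 RPKM (median 143) in the 8 control libraries and 67.2 to 99.6 (median 77.9) in the 8 hairpin libraries, with no overlap. It fell by 0.84 ± 0.08 (adjusted p = 2.43e-06). ENO3 read 11.2 to 16.8 (median 13.7) in controls and 18.9 to 43.7 (median 25.7) with hairpins, again without overlap, and rose by 0.90 ± 0.11 (adjusted p = 2.17e-05). PGM2 and ENO3 thus moved in the same direction here as in the pro-B and Rag2-null deletions.

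HK1, lower in the pro-B deletion, was higher here, and the difference between these effects was not tested. It read 26.1 to 39.5 RPKM (median 34.4) in controls and 38.9 to 69.5 (median 50.1) with hairpins, so that the ranges met at their ends, and rose by 0.58 ± 0.10 (adjusted p = 0.000705). PFKFB4, a second maker of the phosphofructokinase activator, rose by 0.46 (4.40 to 7.07 against 6.52 to 10.8, adjusted p = 0.014; not called with Ik4056 alone, Ik2709 alone or against the empty vector alone), and the gene deposited as PGM1 by 0.33 (17.1 to 21.0 against 21.7 to 27.9, adjusted p = 0.00162). PKM2 read 642 to 903 (median 717) against 520 to 802 (median 589.8), and LDHA 727 to 994 (median 872) against 525 to 883 (median 729). Both ranges overlapped, and neither was called without a block (log2 difference -0.29, adjusted p = 0.0637, and -0.25, adjusted p = 0.151).

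Libraries of the knock-down fall into 4 runs of neighbouring library numbers, each with every construct, and libraries of a run deviated together. With the run as a block 11 members fell and 8 rose, but 23.1% and 28.8% of all genes were then called in those directions. The members that fell included PGM2, TPI1 (-0.31, adjusted p = 1.01e-05), PKM2 (adjusted p = 9.99e-05), LDHA (adjusted p = 0.000463) and PGD (-0.21, adjusted p = 9.3e-05). In the means of both hairpins against both controls within a run, LDHA differed by -0.30 to -0.20, PKM2 by -0.46 to -0.14, HK1 by 0.32 to 0.76 and ENO3 by 0.76 to 1.18 over the 4 runs. Single hairpins were less alike, without the block. For Ik4056 alone LDHA differed by -0.46 (adjusted p = 0.0303), PKM2 by -0.42 (adjusted p = 0.0283) and PGD by -0.38 (adjusted p = 0.0972), and for Ik2709 alone by -0.05 (adjusted p = 0.94), -0.16 (adjusted p = 0.607) and -0.04 (adjusted p = 0.95). In the first run LDHA with Ik2709, at 862.5 RPKM, lay above both controls, at 733.1 and 812. In every other run it lay below both, at 876.3 against 932.4 and 936, 883 against 933.4 and 994.2, and 675.5 against 743.3 and 727. HK1, ENO3, PGM1 and PGM2 were called with either hairpin alone. Of the surrounding lists, no carrier of 8 fell and 2 rose (SLC2A6, 0.97, and SLC2A8, 0.38), and of 26 hypoxia targets 4 rose, led by NDRG1 (1.46) and TPD52 (1.37), and none fell. Myeloid markers rose with the hairpins, with summed neutrophil markers at 21.7 to 90.3 RPKM in controls against 114 to 429 and summed macrophage markers at 4.00 to 11.9 against 31.6 to 64.5. Their part in these results was not tested.

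The control pro-B cells were also set against wild-type pre-B cells and against the c-Kit-high and Rag2-null controls. These 3 comparisons share the control pro-B libraries, and the pre-B cells also differ in genotype. The c-Kit-high controls (library numbers 12073 and 12806) and pre-B libraries (12078 and 12079) are numbered apart from the pro-B controls (11598 and 11599). Whatever those numbers record cannot be told apart from the stage or fraction. Wild-type pre-B against control pro-B cells gave 20 members lower and 5 higher of 34 (median -1.15, against -0.07 over all genes), with 36.9% of all genes called lower and 31.9% higher. From hexokinase to lactate dehydrogenase 14 of 17 were lower (median -1.67), while in the pentose phosphate pathway 2 of 7 were lower and 1 higher (median 0.27). LDHA read 65.9 and 71.9 RPKM in pre-B cells against 837 and 822, a log2 difference of -3.57 ± 0.13 (adjusted p = 6.78e-10) and a ratio of means of 12.1. TPI1 read 39.8 and 41.9 against 360 and 372 (-3.13, adjusted p = 5.24e-09), and PDK1 4.57 and 4.27 against 32.4 and 37.3 (-2.72, adjusted p = 5.84e-09).

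The pentose pathway in pre-B cells was uneven. TKT fell from 625 and 611 to 140 and 152 RPKM (log2 difference -2.08, adjusted p = 4.53e-09), whereas PGLS read 506 and 575 against 295 and 287 and was higher by 0.89 (adjusted p = 0.000161). G6PDX, PGD, TALDO1 and RPE were not called. HK3, the hexokinase typical of myeloid cells, read 19.6 and 23.0 in pre-B libraries and was listed at 0 in both pro-B controls (adjusted p = 4.53e-09), and BPGM, PFKFB4 and PFKFB3 were higher as well. Beside this, all 7 neutrophil markers were higher, with sums of 6829 and 6970 RPKM against 0 and 0.283, all 4 macrophage markers tested were higher, all 5 cycling markers were lower, with sums of 129 and 112 against 500 and 436, and 15 of 20 TCA cycle genes were lower (median -0.70). The part of these shifts in the members' values was not tested.

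Control c-Kit-high against control pro-B cells gave 19 members lower and 3 higher of 34 (median -0.65, against 0.08), with 23.0% and 27.8% of all genes called in these directions. ALDOA read 81.5 and 96.4 RPKM against 612 and 628 (log2 difference -2.79 ± 0.12, adjusted p = 5.16e-08), LDHA 151 and 177 against 837 and 822 (-2.34, adjusted p = 2.12e-07), ENO1 32.1 and 26.4 against 149 and 143 (-2.29, adjusted p = 4.78e-07) and PKM2 219 and 203 against 859 and 827 (-1.99, adjusted p = 6.19e-07). HK1 did not pass the test (49.6 and 47.6 against 65.7 and 62.0), and HK2, at 5.54 and 3.13 against 19.0 and 19.3, was lower by 1.96. In the pentose pathway G6PDX, PGD, TKT and RPIA were lower and PGLS was higher (0.48), a call lost without c-Kit-high control replicate 2 (0.24) or without either pro-B control. Without the histone-rich libraries 21 of the 22 calls were kept. All 7 neutrophil markers were higher, and 3 of 5 cycling markers were lower with the others not called, and their part in the result was not tested.

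Rag2-null against pro-B controls went the other way, with 10 members higher and 2 lower (median 0.18, against -0.08), while 10.9% of all genes were higher and 20.7% lower. The members that rose were GPI1 (0.77), ALDOA (0.74), ALDOC (0.98), TPI1 (0.66), ENO1 (1.09), PKM2 (0.66), LDHA (0.52), PGM2 (0.72), PGLS (1.31) and TALDO1 (0.56), and PFKFB3 (-0.39) and HIF1A (-0.74) were lower. HIF1A read 12.1 and 14.02 RPKM in the Rag2-null and 23.9 and 21.2 in the pro-B controls. ENO1, PKM2 and LDHA stood highest of all groups in the Rag2-null controls, and any link between HIF1A and these levels was not tested. These calls depended on scaling in part: quantile normalization, which moved the median of all genes by 0.10, kept GPI1 (0.42), ALDOC, ENO1, PGM2 and PGLS (0.79), lost ALDOA (0.03), TPI1 (0.16), TALDO1 (0.27), PFKFB3 (-0.27) and HIF1A (-0.57), and turned PKM2 to -0.16 and LDHA to -0.18. ALDOC went to 0.42 without Rag2-null control replicate 1. PFKFB3 lost its call in 9 alternatives, with -0.23 without Rag2-null control replicate 2, and HIF1A lost its call without pro-B control replicate 1 or Rag2-null control replicate 1. The Rag2-null libraries carry library numbers far from those of the pro-B libraries, and whatever those numbers record cannot be told apart from the genotype. Of 5 stroma and endothelium markers 3 were lower in the Rag2-null controls, and their part in the result was not tested.

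**Figure D4:**
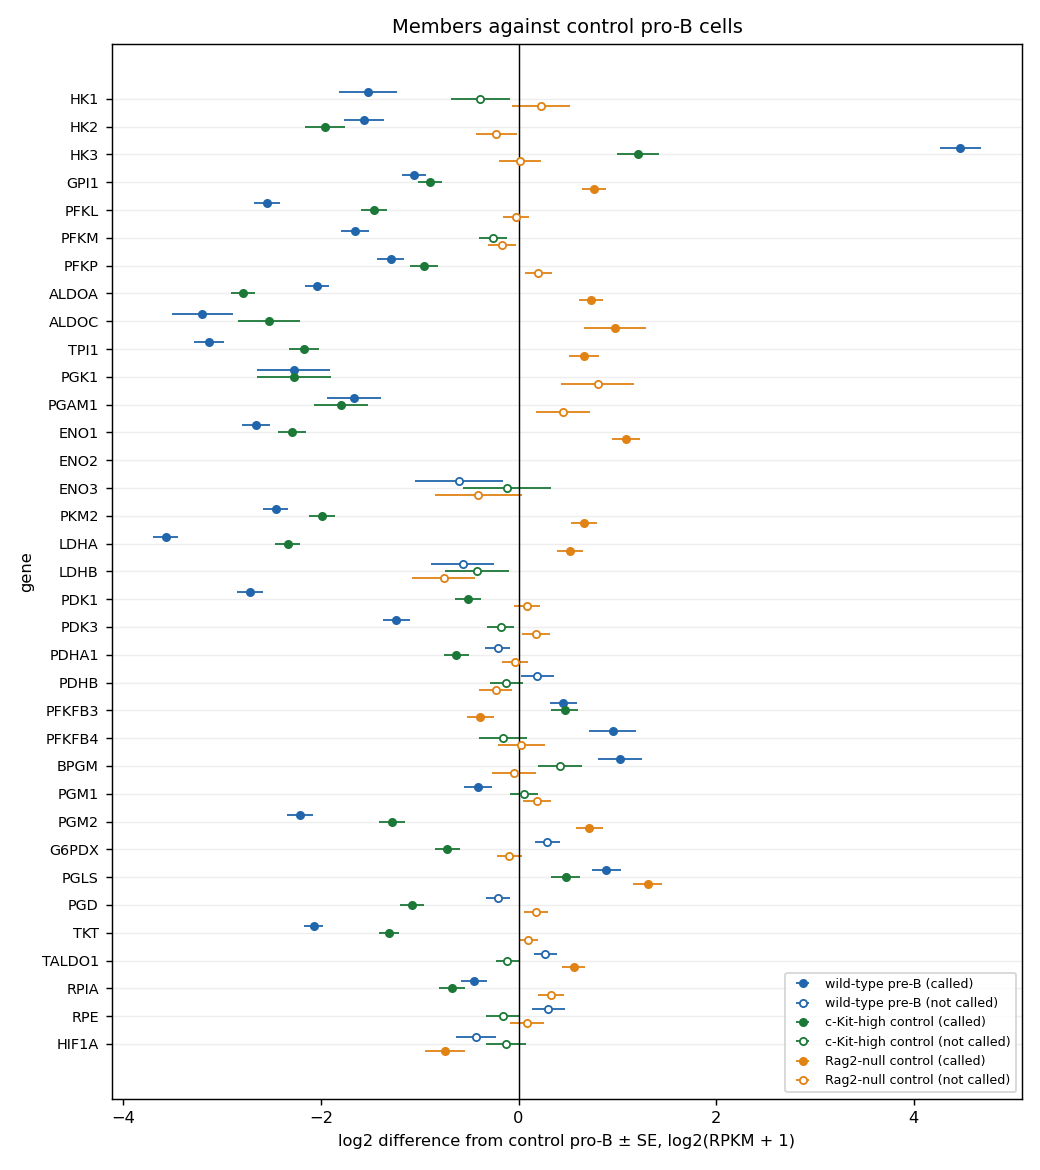
Log2 difference from control pro-B cells (horizontal axis, ± SE, log2(RPKM + 1)) of each member in wild-type pre-B, c-Kit-high control and Rag2-null control cells; filled points have an adjusted p under 0.05. Blue and green points for ALDOA, TPI1, ENO1, PKM2 and LDHA lie between -3.57 and -1.99, and the orange points for the same genes lie between 0.52 and 1.09.

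Within enzyme families the makeup of isozymes differed between groups, given here as shares of the summed RPKM of a family with no test. HK1 made up 76.2% to 77.6% of hexokinase RPKM in control pro-B cells, 61.4% to 63.3% after deletion and 86.9% to 92.4% in c-Kit-high controls. In the pre-B libraries HK3 reached 41.8% to 45.5% and HK1 43.1% to 45.5%, close to equal parts. These libraries also held neutrophil markers summing to 6829 and 6970 RPKM, and their part in the HK3 share was not tested. PFKL held 69.5% to 70.7% of phosphofructokinase RPKM in control pro-B cells and 60.7% to 61.7% after deletion, the only form that fell there. PFKM went from 7.75% to 8.19% in Rag2-null controls to 13.1% to 15.5% after deletion, and from 17.4% to 17.9% to 24.5% to 24.6% in c-Kit-high cells. ENO3 went from 1.54% to 1.90% of enolase to 10.5% to 27.7% in Rag2-null cells without overlap. Its ranges overlapped in the knock-down (6.60% to 13.1% against 10.2% to 28.9%) and in c-Kit-high cells (15.5% to 22.9% against 20.1% to 34.8%). LDHB stayed a minor subunit everywhere, with its largest share, 3.32% to 5.11%, in deleted c-Kit-high cells.

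**Figure D5:**
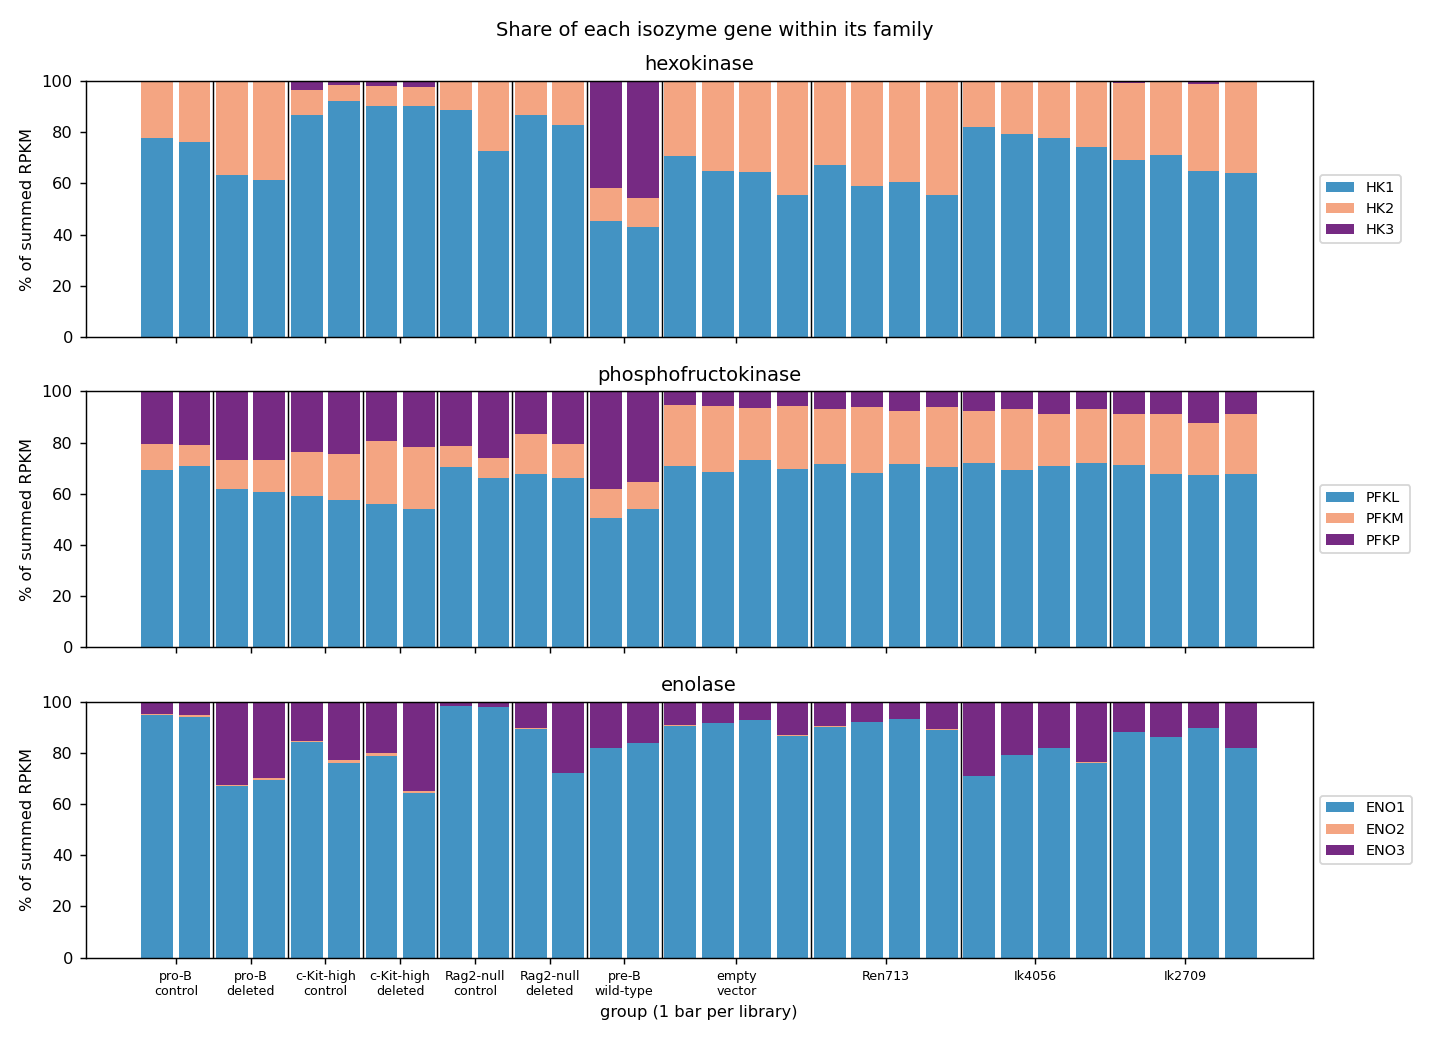
Share of each isozyme gene in the summed RPKM of the hexokinase, phosphofructokinase and enolase families (vertical axes, %), 1 bar per library, by group. HK3 appears as a large block in the 2 pre-B libraries, which also hold high neutrophil markers. The ENO3 block is larger in Ikaros-deleted pro-B (29.9% to 32.6%) than in control pro-B libraries (4.63% to 5.06%).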

How the data were processed

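RNA of 30 mouse libraries was analysed; 18 chromatin samples were not analysed here. RPKM values per gene model were deposited by the authors, per the file headers; the submitters' processing notes name TopHat 1.4.1, HTSeq 0.5.3, DESeq 1.8.3 and mm9, but their roles, and whether counting used strand, are not given in the sources used here. Grouping followed the labels. From these values, log2(RPKM + 1) of genes with at least 1 RPKM in at least 2 libraries of a fit was tested with limma 3.58.1 (R 4.3.3; trend and robust moderation, two-sided, Benjamini-Hochberg): 14 pro-B and pre-B libraries in 1 fit (7 residual degrees of freedom) and 16 knock-down libraries in another (12). Where 1 library of a group was left out, the lone one is assumed to vary like the other groups. The procedure was tested on simulated data. Because the RPKM files keep no counts, no count model was used. No 2 of 435 library pairs were identical.

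Knock-down libraries of a run of library numbers deviated together (24 pairs, lowest r = 0.52), so the run was used as a block in an alternative. Called members of largest difference or level are given library by library. Members, lists and tests were chosen with earlier results of these data known. Alternatives changed the pseudocount, filter, scaling, libraries in the fit, moderation and single libraries. Promoters come from a RefSeq table. Python 3.11.15, pandas 2.3.3, numpy 2.4.6 and matplotlib 3.10.9 were used.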

Additional observations from a re-analysis of the deposited data

Results flagged for a closer look

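Deletion effects differed from those in pro-B cells for 10 members by a test of the difference itself, all in fits that share the pro-B libraries. The Rag2-null cells are pro-B cells of another genotype, with library numbers far from those of the pro-B libraries. Among the c-Kit-high libraries only deleted replicate 1, number 11597, lies next to the pro-B numbers. Relative to pro-B cells the effect in c-Kit-high cells was higher on the log2 scale by 1.171 for ALDOA, 1.072 for PKM2, 0.926 for TPI1, 0.920 for LDHA, 0.854 for ENO1 and 0.732 for PFKL. Relative to pro-B cells the effect in Rag2-null cells differed by -1.251 for PGLS, -0.724 for RPIA, -0.595 for PDHA1 and 0.764 for PDK1. PDHA1 lost this call in 11 of the alternatives run and PFKL in 10, whereas ALDOA and PKM2 lost it in none. Each of the 4 members of the Rag2-null comparison lost it in at least 1.

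A single library stood apart from the other 3 of its group in 2 of 128 groups of 4 examined, where chance alone sets about 1 group in 20 apart. G6PDX read 51.17 RPKM in Ren713 replicate 1 against 44.47 to 45.25 in the others, and LDHA read 675.5 RPKM in Ik2709 replicate 4 against 862.5 to 883.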

How the results depend on the processing

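Calls rest on 2 libraries a group outside the knock-down, and values below a few RPKM on few reads. Of the members called, 16 in the pro-B deletion became 10 with all 30 libraries in 1 fit and 8 to 11 when 1 library was left out; 4 in the c-Kit-high deletion became 1 with the compared libraries only and 1 to 4 when 1 was left out. In the Rag2-null deletion 15 became 10 to 17 when 1 was left out. In the knock-down 5 became 10 with all 30 libraries in 1 fit, 19 with the run of library numbers as a replicate block and 5 to 7 when 1 was left out. In Rag2-null against pro-B controls 12 became 6 under quantile normalization, where PKM2 turned to -0.16 and LDHA to -0.18 (cause not tested), and 9 to 13 when 1 was left out. The members whose deletion effect differed from pro-B numbered 1 to 6 in Rag2-null and 2 to 7 in c-Kit-high cells when 1 was left out. Leaving out 1 library gave 22 to 27 members in pre-B and 19 to 22 in c-Kit-high controls. The other alternatives kept each count of called members within 1.5 times, but not always the same genes: with all 30 libraries in 1 fit 3 of the 6 c-Kit-high and 2 of the 4 Rag2-null differences from pro-B were kept, and 2 of the 4 under quantile normalization.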
